A study of Mus musculus with 12 samples.

Results

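The TRAF adaptors, the cIAPs and NIK were examined as 10 genes, the rows of the deposited gene table named Traf1, Traf2, Traf3, Traf4, Traf5, Traf6, Traf7, Birc2, Birc3 and Map3k14, out of 53465 genes. They comprise 7 TRAF adaptors, the 2 cIAPs (Birc2 encodes cIAP1 and Birc3 encodes cIAP2) and 1 kinase, Map3k14, which encodes NIK. RNA was sequenced from the left ventricles of 12 mice, 3 in each of 4 groups. All mice were homozygous for a floxed Adam17 gene on a C57BL/6J background. A17fl/fl mice lacked Cre, and A17α-MHCKO mice carried Cre under the α-myosin heavy chain promoter, which deletes Adam17 in cardiomyocytes and leaves it in the other cells of the heart. Mice of both genotypes received doxorubicin (DOX), an anthracycline, at 5 mg/kg intraperitoneally on days 0, 7, 14 and 21, or 20 mg/kg in total, or an equal volume of normal saline (NS). The study describes these mice as young adult males and the RNA as left ventricular, whereas the labels give only heart. Hearts were taken some weeks after the last injection.

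TRAF proteins are cytoplasmic adaptors that bind the tails of TNF receptor family members and of Toll-like and interleukin-1 receptor complexes, and most of them carry a RING domain. TRAF2, TRAF3 and a cIAP form a complex that ubiquitinates NIK and keeps it low at rest, and loss of TRAF3 lets NIK accumulate and activate IKKα, which drives processing of the Nfkb2 product in the non-canonical NF-κB pathway. TRAF2 with the cIAPs also carries the TNF receptor 1 signal to TAK1 and the canonical pathway, and Traf1 and Birc3 are themselves classical NF-κB target genes. NIK and TRAF3 are controlled to a large extent at the protein level, which RNA counts do not show.

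Traf3 (ENSMUSG00000021277) lies on chromosome 12 from 111166370 to 111267153 on the plus strand and Map3k14 (ENSMUSG00000020941) on chromosome 11 from 103219762 to 103267472 on the minus strand, in GRCm38 coordinates from GENCODE M21. Traf1 (chromosome 2, 34941750 to 34961772), Traf2 (chromosome 2, 25517982 to 25546940) and Traf6 (chromosome 2, 101678429 to 101701669) share a chromosome. Birc2 (chromosome 9, 7818227 to 7837064) and Birc3 (chromosome 9, 7848699 to 7873186) are adjacent paralogs. The others were Traf4 (chromosome 11, 78158499 to 78165589), Traf5 (chromosome 1, 191997205 to 192092559) and Traf7 (chromosome 17, 24508562 to 24527938). Traf5 overlaps Gstp-ps, a pseudogene on the same strand with up to 35.8 CPM, so its counts are less certain than those of the others, whose overlapping genes reached at most 0.814 CPM. The adjacent expressed genes of Traf3, Rcor1 and Cdc42bpb, had 21.4 to 31.0 CPM and 95.5 to 136.0 CPM, and log2 fold changes after doxorubicin in A17fl/fl mice of -0.01 and 0.05. In A17α-MHCKO mice these were -0.22 and -0.25. Between the genotypes they were -0.0 and 0.03 after saline. After doxorubicin the genotypes differed by -0.2 and -0.27 (edgeR unadjusted p = 0.142 and 0.0465). Adam17 is on the same chromosome as Traf3 (chromosome 12, 21323509 to 21373632).

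The 100 bases before the start of Traf3, Birc3, Traf1 and Map3k14 are shown because these genes carry the differences described further on and 3 of them belong to the NF-κB circuit as target or kinase. Each sequence is from RefSeq (GRCm38.p6), is written 5′ to 3′ on the strand of its gene, and ends just before the more upstream of the RefSeq and GENCODE starts. Capitals mark a match to the κB consensus, the 10-base site bound by NF-κB dimers. The windows are chr12:111166270-111166369 (plus strand) for Traf3, chr9:7873187-7873286 (minus strand) for Birc3, chr2:34961773-34961872 (minus strand) for Traf1 and chr11:103267473-103267572 (minus strand) for Map3k14.
Traf3: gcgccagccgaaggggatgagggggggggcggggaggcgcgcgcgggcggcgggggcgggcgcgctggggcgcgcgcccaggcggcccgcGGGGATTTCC
Birc3: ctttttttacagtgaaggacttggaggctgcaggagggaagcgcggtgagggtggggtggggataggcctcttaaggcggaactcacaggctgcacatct
Traf1: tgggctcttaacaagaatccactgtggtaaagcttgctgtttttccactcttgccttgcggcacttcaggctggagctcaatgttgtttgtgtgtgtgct
Map3k14: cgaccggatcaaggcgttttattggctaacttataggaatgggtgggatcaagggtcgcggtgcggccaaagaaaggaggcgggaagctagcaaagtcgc

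All 10 genes had a RefSeq promoter window of 300 bases, 250 before and 50 after the start, and 11 windows were searched on both strands, since Birc2 has more than 1. Only the Traf3 window held a match to the κB consensus, from base -10 to base -1 on the plus strand. Such a match was present in 4.51% of the 32851 windows of that length. It is a match of letters and no measure of binding, and the absence of one in the other windows says nothing of sites elsewhere.

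Total counts per library were between 15950717 and 21725076. A17fl/fl + NS replicate 1 stood apart from the other 11 libraries. In that library the summed CPM of 6 neutrophil markers was 2218, against 5.21 to 65.5 in the others, with 6 of the 6 markers highest there, and the sum of 6 macrophage markers was 853, against 319 to 428. The sum of 6 fibroblast markers was 4923 CPM, against 1205 to 2121, with 4 of the 6 highest there and 1 lowest. The sum of 5 red cell markers was 3621 CPM, against 518 to 1934, with 5 of the 5 highest there. The cardiomyocyte marker sum was 14862 CPM there and 23828 to 39372 CPM in the others, so heart muscle transcripts were abundant in every library. Adam17, the targeted gene, had 27.9 to 36.8 CPM in the A17α-MHCKO mice and 43.6 to 70.9 CPM in the A17fl/fl mice, without overlap. In tissue RNA, fewer cells of a type and less RNA per cell cannot be told apart.

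Birc2 was the most abundant of the 10 transcripts per length and Traf1 the least. The deposited FPKM, which divide counts by transcript length and library total, allow levels of different genes to be compared. Over the 11 libraries other than A17fl/fl + NS replicate 1, the mean FPKM was 3.26 for Birc2, 2.49 for Traf2, 2.35 for Traf7, 2.04 for Traf6, 1.71 for Birc3, 1.46 for Traf4, 0.96 for Map3k14, 0.845 for Traf5, 0.763 for Traf3 and 0.188 for Traf1. Traf3 (0.436 to 1.24 FPKM) and Traf1 (0.0942 to 0.32 FPKM) were the only neighbors in this order whose ranges over these libraries did not overlap. Traf2 and Traf7 were close, with Traf2 above Traf7 in 7 of 11 libraries, and Traf5 was above Traf3 in 7 of 11. Birc2 was above Traf2 in 11 of 11 and Traf6 above Birc3 in 11 of 11, although their ranges overlapped. Traf3 was thus among the least abundant TRAF transcripts in saline-treated A17fl/fl hearts, with 0.634, 0.526 and 0.436 FPKM, and the A17fl/fl + DOX mice had 1.24, 1.03 and 1.11 FPKM, which placed it above Traf5 and Map3k14 in the group mean.

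**Figure D1:**
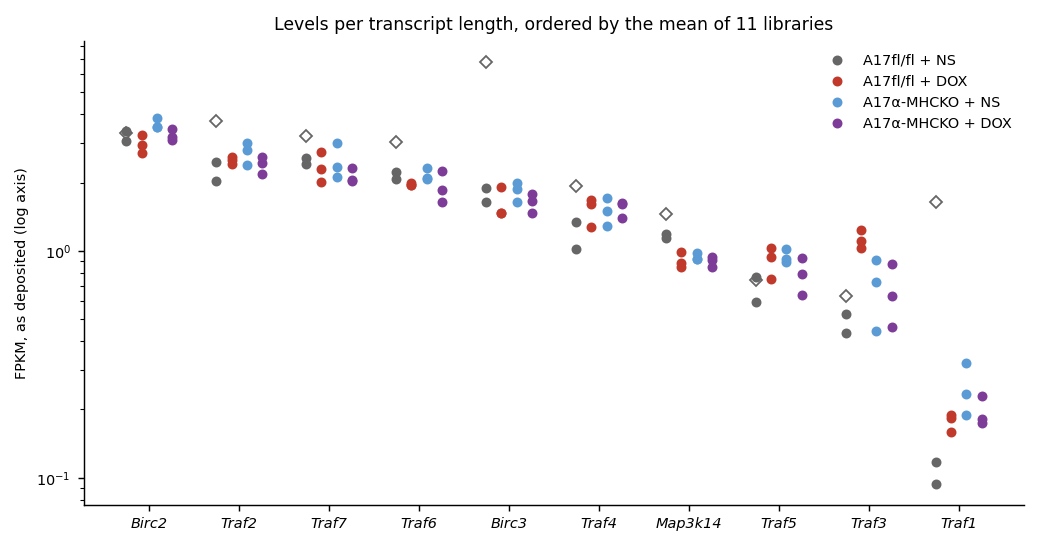
Deposited FPKM (log axis) of each of the 10 genes in the 12 libraries, colored by group, with genes ordered by their mean over 11 libraries; the open diamond is A17fl/fl + NS replicate 1. Birc2 is the highest and Traf1 the lowest, and the diamond stands far above the other points in Birc3 (6.81 FPKM) and Traf1 (1.64 FPKM).

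The 10 genes were then compared between the groups on TMM-normalized CPM, in 1 edgeR quasi-likelihood model of 16101 genes. At an adjusted p under 0.05, 0 of the 10 genes passed in any of the 7 comparisons, and DESeq2 and limma's voom also gave 0. Of all genes, 0% passed for doxorubicin in A17fl/fl mice, 0% for doxorubicin in A17α-MHCKO mice, 0.0186% for genotype after saline, 0.00621% for genotype after doxorubicin, 0% for the interaction, 0% for doxorubicin over both genotypes and 0.0248% for genotype over both treatments. Each edgeR p-value weighs a difference against a spread between mice estimated over all 4 groups. A library that stands apart thus widens it in every comparison. For Traf1 after doxorubicin in A17α-MHCKO mice the standard error was 0.81, and 0.23 without A17fl/fl + NS replicate 1. With 0 of the 10 genes passing, no gene below is said to have changed, and its values are given as measured.

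At an unadjusted p under 0.05, doxorubicin in A17fl/fl mice gave 3 of the 10 genes (Traf3 higher, Map3k14 and Birc3 lower), beside 10.7% of all genes. In A17α-MHCKO mice it gave 0 of 10, beside 6.42%. Genotype after saline gave 2 (Map3k14 and Birc3, both lower in A17α-MHCKO), beside 10.1%, and genotype after doxorubicin gave 1 (Traf3, lower in A17α-MHCKO), beside 2.7%. The interaction gave 2 (Traf3 and Map3k14), beside 5.99%. Doxorubicin over both genotypes gave 2 (Traf3 and Map3k14), beside 10.7%, and genotype over both treatments gave 0, beside 6.65%. With 10 genes, none of these counts is read as a result about the family. By the limits the study used (absolute log2 fold change over 1, unadjusted p under 0.05 and mean FPKM over 1), 2 of the 10 genes passed for doxorubicin in A17fl/fl mice (Traf3 and Birc3), beside 2.82% of all genes, and 0 for genotype after doxorubicin, beside 0.205%. The groups did not overlap for 3 of the 10 genes after doxorubicin in A17fl/fl mice (Traf3, Map3k14 and Traf6; 13.3% of all genes) and for 0 of 10 in A17α-MHCKO mice (16.9%). They did not overlap for 3 between the genotypes after saline (Map3k14, Traf5 and Traf6; 10.9%) and for 1 after doxorubicin (Traf3; 14.1%). The median log2 fold change of the 10 genes was -0.19 after doxorubicin in A17fl/fl mice (-0.04 over all genes) and -0.09 in A17α-MHCKO mice (0 over all genes).

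**Figure D2:**
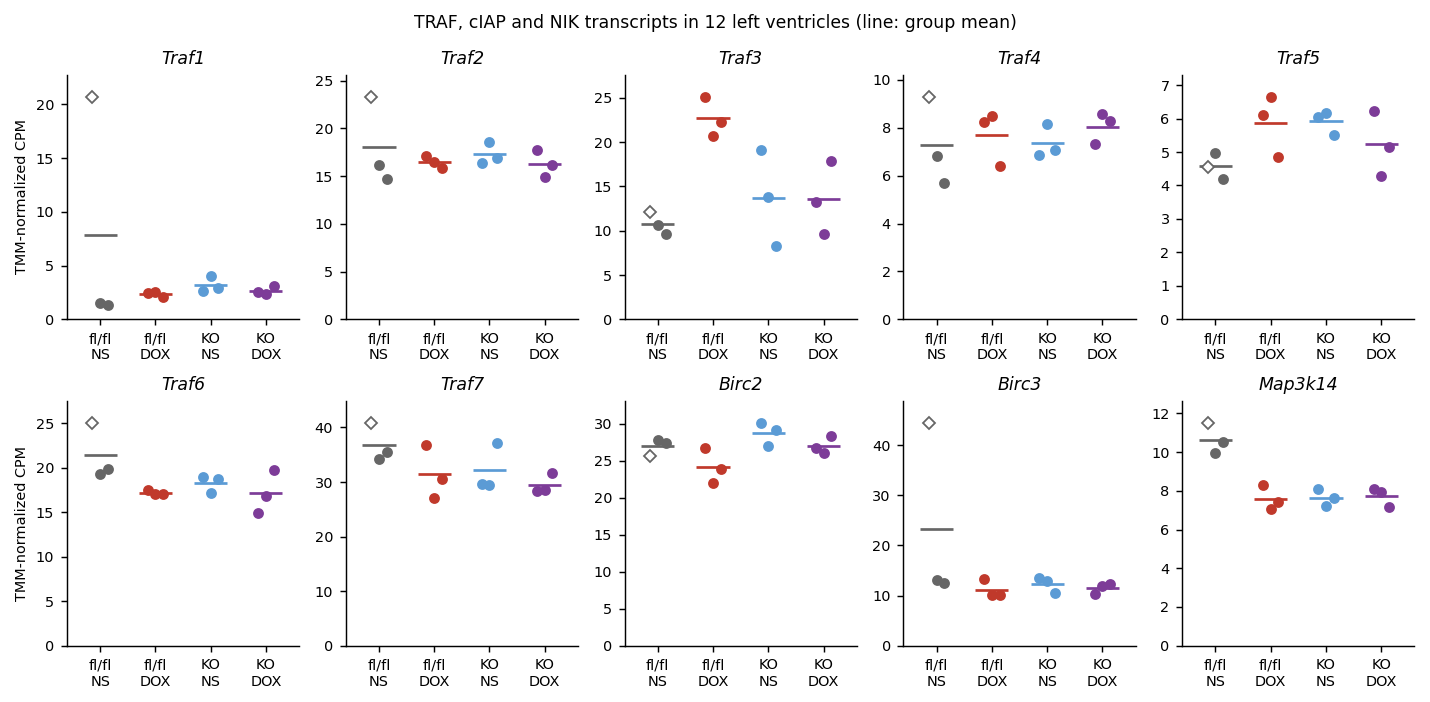
TMM-normalized CPM of the 10 genes in each of the 12 libraries by group (fl/fl, A17fl/fl; KO, A17α-MHCKO), with a line at each group mean; the open diamond is A17fl/fl + NS replicate 1. The A17fl/fl + DOX mice are the 3 highest for Traf3 (20.7 to 25.1 CPM), and the A17fl/fl + NS mice are the 3 highest for Map3k14 (9.93 to 11.5 CPM).

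Traf3, the adaptor that recruits the NIK-degrading complex, was highest in A17fl/fl + DOX hearts. A17fl/fl mice showed 12.1, 10.6 and 9.65 CPM with saline and 25.1, 20.7 and 22.3 CPM with doxorubicin. A17α-MHCKO mice showed 19.1, 13.8 and 8.31 CPM with saline and 13.2, 9.68 and 17.9 CPM with doxorubicin. All 3 A17fl/fl + DOX values lay above all other 9 libraries, a pattern shared by 0.422% of all tested genes, while the A17α-MHCKO groups overlapped each other. The study singled out Traf3 from these samples, so its comparisons are not independent evidence of their direction.

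The log2 fold change of Traf3 after doxorubicin was 1.07 in A17fl/fl mice (95% interval 0.44 to 1.70, edgeR adjusted p = 0.334) and -0.02 in A17α-MHCKO mice (95% interval -0.64 to 0.61, edgeR adjusted p = 0.995). The difference between the effects, tested as the interaction, was -1.09 (95% interval -1.98 to -0.21, edgeR unadjusted p = 0.0198, adjusted p = 0.828). Between the genotypes after doxorubicin it was -0.74 (95% interval -1.37 to -0.12, edgeR adjusted p = 1.0), and after saline 0.35 (95% interval -0.28 to 0.98). The exact two-sided permutation test of 3 against 3 mice gave p = 0.1 for doxorubicin in A17fl/fl mice and for genotype after doxorubicin, the smallest it allows. Over the alternatives the adjusted p for doxorubicin in A17fl/fl mice ran from 0.0502 with DESeq2 to 0.791 with the groups compared alone. The unadjusted p of the interaction was 0.0606 from edgeR without A17α-MHCKO + NS replicate 1, and 0.0507 from voom with library weights. That for genotype after doxorubicin was 0.0689 from edgeR without A17fl/fl + DOX replicate 1. It was 0.0601 and 0.097 without A17α-MHCKO + DOX replicate 1 and A17α-MHCKO + DOX replicate 2.

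Traf3 also varied more among A17α-MHCKO mice than among A17fl/fl mice. The coefficient of variation between mice of 1 group was 11.6% in A17fl/fl + NS and 9.69% in A17fl/fl + DOX, and 39.4% in A17α-MHCKO + NS and 30.2% in A17α-MHCKO + DOX. Counting error alone would give 5.23% to 7.45%, so these spreads lie above it. The highest A17α-MHCKO + NS mouse had 2.3 times the lowest, and the highest A17α-MHCKO + DOX mouse 1.84 times the lowest. In the A17α-MHCKO groups the spread of the other 9 genes was at most 22.7%, for Traf1, the rarest. The difference in spread between the genotypes was seen in the values and not tested.

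The cardiomyocyte marker sum, over 6 genes of which 0 were at 0 throughout, was also higher in A17fl/fl + DOX than in A17fl/fl + NS mice. The cardiomyocyte marker sum was 14862 to 34812 CPM after saline and 36836 to 39372 CPM after doxorubicin in A17fl/fl mice. In A17α-MHCKO mice it was 23828 to 29973 CPM after saline and 33930 to 36212 CPM after doxorubicin, also without overlap, while Traf3 overlapped. The sum of 5 atrial markers, which differed widely between libraries, was 3864, 6454 and 8361 CPM in the A17α-MHCKO + NS mice in which Traf3 was 19.1, 13.8 and 8.31 CPM, and 1803, 1803 and 3990 CPM in the A17α-MHCKO + DOX mice in which it was 13.2, 9.68 and 17.9 CPM. The part of these cells in the Traf3 values was not tested.

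Map3k14, the NIK transcript, had the opposite order in A17fl/fl mice and was highest after saline. A17fl/fl mice showed 11.5, 9.93 and 10.5 CPM with saline, against 8.3, 7.08 and 7.4 CPM with doxorubicin. A17α-MHCKO mice had 8.09, 7.21 and 7.61 CPM after saline and 8.12, 7.93 and 7.17 CPM after doxorubicin. The 3 A17fl/fl + NS mice were above all other 9 libraries, as was the case for 1.28% of all tested genes, and the other 3 groups, with means of 7.59, 7.64 and 7.74 CPM, overlapped. Within each group the spread was 5.73% to 8.35%, no larger than the counting error of 7.51% to 9.05%.

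The log2 fold change of Map3k14 was -0.49 after doxorubicin in A17fl/fl mice (95% interval -0.81 to -0.16, edgeR unadjusted p = 0.00656, adjusted p = 0.358). Between the genotypes after saline it was -0.48 (95% interval -0.80 to -0.16, edgeR unadjusted p = 0.00714, adjusted p = 0.326), which uses the same A17fl/fl + NS mice. It was 0.02 after doxorubicin in A17α-MHCKO mice (95% interval -0.30 to 0.34) and 0.03 between the genotypes after doxorubicin (95% interval -0.29 to 0.35). The interaction was 0.50 (95% interval 0.05 to 0.96, edgeR unadjusted p = 0.0322, adjusted p = 0.828). Without A17fl/fl + NS replicate 1 the values were -0.43 (unadjusted p = 0.0159) and -0.42 (unadjusted p = 0.0175) for the first of these comparisons and 0.45 (unadjusted p = 0.0502) for the interaction, all from edgeR. The unadjusted p of the interaction was also over 0.05 without any of 6 libraries of the other groups, between 0.0583 and 0.0776, at 0.0676 with no filter and at 0.0926 with the likelihood ratio test.

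Because Traf3 and Map3k14 differed in opposite directions, their ratio within a library was read as well, a quantity chosen after the values were seen and therefore not tested. The ratio of Traf3 to Map3k14 FPKM was 0.438, 0.443 and 0.383 in A17fl/fl + NS mice and 1.26, 1.22 and 1.25 for A17fl/fl + DOX. The A17α-MHCKO mice had ratios of 0.983, 0.796 and 0.453 after saline and 0.673, 0.507 and 1.03 after doxorubicin. The A17fl/fl groups were each tight and far apart, and both A17α-MHCKO groups lay between them and overlapped each other. The share of Traf3 in the summed FPKM of Traf1 to Traf7, which does not depend on scaling between libraries, was read beside it. It was 4.25%, 5.26% and 5.03% in A17fl/fl + NS mice and 11%, 9.9% and 11.2% for A17fl/fl + DOX, a difference of 5.83 percentage points (p = 0.1 in the two-sided exact permutation test, its minimum). In A17α-MHCKO mice it was 9.2%, 6.5% and 3.97% after saline and 6.69%, 5.15% and 8.34% after doxorubicin, a difference of 0.164 percentage points (exact permutation test, two-sided p = 0.9). Between the genotypes after doxorubicin the share differed by -3.95 percentage points, lower in A17α-MHCKO mice (two-sided exact permutation p = 0.1), and the groups did not overlap.

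**Figure D3:**
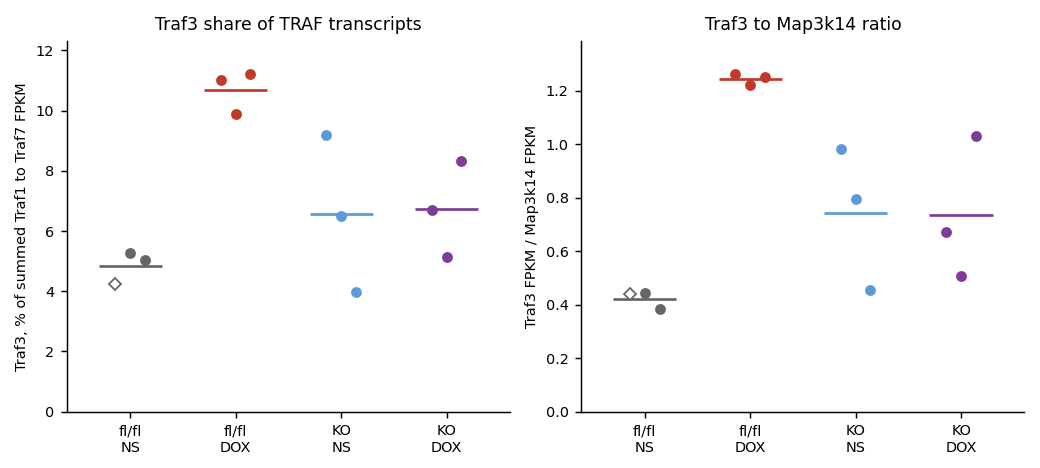
Left, Traf3 as a percentage of the summed FPKM of Traf1 to Traf7; right, the ratio of Traf3 to Map3k14 FPKM; each point is 1 of the 12 libraries, lines are group means and the open diamond is A17fl/fl + NS replicate 1. The A17fl/fl + NS mice (ratio 0.383 to 0.443) and A17fl/fl + DOX mice (ratio 1.22 to 1.26) are apart. For the ratio, both A17α-MHCKO groups (0.453 to 1.03) lie between them and overlap each other.

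Traf1 and Birc3, the NF-κB-inducible members, were far higher in A17fl/fl + NS replicate 1 than in any other library. The neutrophil and macrophage marker sums given above were also highest there, and their part in these values was not tested. Birc3, an E3 ligase for RIPK1 and NIK, reached 44.4 CPM there, while the other 11 libraries had 10.1 to 13.5 CPM. Traf1, which lacks a RING domain and pairs with TRAF2, reached 20.7 CPM there, and the other libraries had 1.38 to 4.02 CPM. The values of that library were 3.3 and 5.16 times the next highest. It was the highest of the 12 libraries for 7 of the 10 genes (Traf1, Traf2, Traf4, Traf6, Traf7, Birc3 and Map3k14), beside 26.1% of all genes, and for Traf2 (23.3 CPM, others 14.7 to 18.6) and Traf6 (25.0 CPM, others 14.9 to 19.9) the gap was also clear. Traf3 had 12.1 CPM there, within the range of the others.

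The direction for Traf1 depended on that library. With it, the log2 fold change was -1.74 after doxorubicin in A17fl/fl mice (95% interval -3.54 to 0.06, edgeR adjusted p = 0.477) and -1.30 between the genotypes after saline (95% interval -3.06 to 0.46). Without it, these were 0.68 (edgeR unadjusted p = 0.0329, adjusted p = 0.461) and 1.12 (edgeR unadjusted p = 0.00189, adjusted p = 0.188). The other A17fl/fl + NS mice had 1.56 and 1.38 CPM, below all 9 libraries of the other groups (2.11 to 4.02 CPM). Traf1 rested on few counts, as low as 22 in a library. For Birc3 the log2 fold change after doxorubicin in A17fl/fl mice moved from -1.07 (95% interval -1.96 to -0.17) to -0.20 (unadjusted p = 0.268), and that between the genotypes after saline from -0.92 to -0.06, both from edgeR. Without that library, 3 of the 10 genes had an unadjusted p under 0.05 for doxorubicin in A17fl/fl mice (Traf1, Traf3 and Map3k14; 10.2% of all genes), 0 for doxorubicin in A17α-MHCKO mice (11.5%), 2 for genotype after saline (Traf1 and Map3k14; 10.2%) and 2 for the interaction (Traf1 and Traf3; 7.13%).

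**Figure D4:**
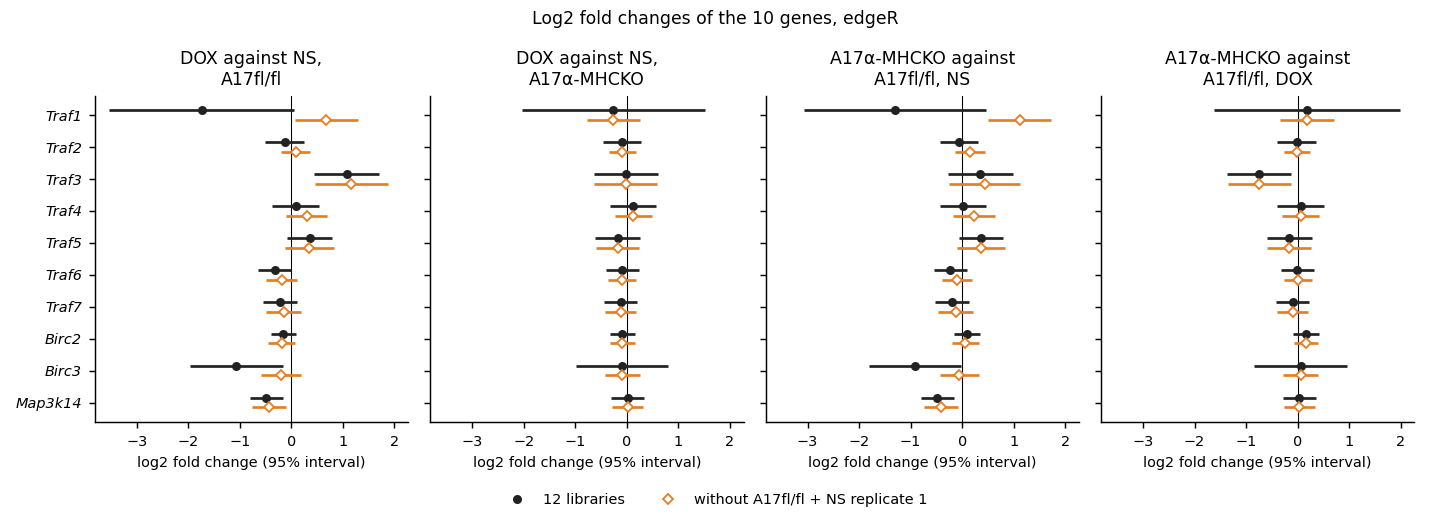
Log2 fold changes of the 10 genes with 95% intervals in 4 comparisons, from edgeR with all 12 libraries (filled circles) and without A17fl/fl + NS replicate 1 (open diamonds). In the 2 comparisons that use A17fl/fl + NS mice, Traf1 changes sign (-1.74 to 0.68 and -1.30 to 1.12) and Birc3 comes close to 0, whereas Traf3 (1.07 and 1.16) and Map3k14 (-0.49 and -0.43) after doxorubicin in A17fl/fl mice stay in place.

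Of the other 6 genes, 0 had an unadjusted p under 0.05 in any of the 4 comparisons of pairs of groups. Birc2, the constitutive cIAP, had 22.0 to 30.1 CPM over the 12 libraries, with a log2 fold change of -0.16 after doxorubicin in A17fl/fl mice (95% interval -0.40 to 0.09) and -0.09 in A17α-MHCKO mice (95% interval -0.33 to 0.16). Traf2, the partner of the cIAPs, had 14.9 to 18.6 CPM outside A17fl/fl + NS, and log2 fold changes of -0.13 (95% interval -0.51 to 0.24) and -0.09 (95% interval -0.46 to 0.28). The partners of TRAF3 in the NIK complex therefore did not share its order.

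Traf6, the adaptor of Toll-like and interleukin-1 receptors, had 25.0, 19.3 and 19.9 CPM with saline and 17.5, 17 and 17 CPM with doxorubicin in A17fl/fl mice. The groups did not overlap, and the log2 fold change was -0.32 (95% interval -0.64 to 0, edgeR adjusted p = 0.471), or -0.19 without A17fl/fl + NS replicate 1. Traf5, a close relative of Traf2, had 4.56, 4.97 and 4.2 CPM in saline-treated A17fl/fl mice and 6.05, 6.18 and 5.52 CPM in saline-treated A17α-MHCKO mice, also without overlap, with a log2 fold change of 0.37 (95% interval -0.06 to 0.80, edgeR adjusted p = 0.553). Its interaction was -0.54 (95% interval -1.15 to 0.07, edgeR adjusted p = 0.844). Traf4 (5.7 to 9.29 CPM) and Traf7 (27.0 to 40.8 CPM), which act largely outside TNF receptor signaling, had log2 fold changes between -0.23 and 0.13 in those 4 comparisons. Without A17fl/fl + NS replicate 1, that of Traf4 after doxorubicin in A17fl/fl mice was 0.30 (edgeR unadjusted p = 0.138).

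The genes around the TRAFs were read from 10 lists with 90 genes, of which 76 were tested; Ccl19 and Ccl21a each have more than 1 row of that name and were left out. At an adjusted p under 0.05 from edgeR 0 of them passed. At an unadjusted p under 0.05, doxorubicin in A17fl/fl mice gave 3 genes higher and 13 lower, beside 10.7% of all genes, and genotype after saline gave 3 higher and 11 lower in A17α-MHCKO, beside 10.1%. Without A17fl/fl + NS replicate 1 the counts were 8 higher and 3 lower, and 6 higher and 6 lower, of 77 tested, each beside 10.2% of all genes. Doxorubicin in A17α-MHCKO mice gave 1 higher and 0 lower (6.42% of all genes), and 4 higher and 2 lower without that library (11.5% of all genes). The interaction gave 5 with a positive and 2 with a negative value (5.99%), and 1 and 3 without that library (7.13%). Genotype after doxorubicin gave 0, beside 2.7%. That saline library was also the one with the highest neutrophil marker sum, whose part in these counts was not tested.

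Of the ligands, Tnf was not tested in the model of all 12 libraries, since its counts were 1 to 10 in 11 libraries and 1194 only in A17fl/fl + NS replicate 1. The 3 ligands tested had a median log2 fold change of -0.44 after doxorubicin in A17fl/fl mice and -0.05 without that library. Among 14 receptors, Tnfrsf1a, the main TNF receptor, was at 206 CPM there and at 68.7 to 83.4 CPM elsewhere. Tnfrsf1b, the TRAF2-binding TNF receptor 2, was at 157 CPM there and at 15.9 to 28.1 CPM elsewhere. Without that library the log2 fold changes of both after doxorubicin in A17fl/fl mice were 0.02 and -0.08.

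Tnfrsf12a, the receptor of TWEAK, which recruits TRAF2 and the cIAPs and activates NIK, was higher after doxorubicin, without overlap of the groups in A17α-MHCKO mice. Its CPM there were 27.1, 33.2 and 31.9 with saline and 99.3, 65.6 and 65.5 with doxorubicin. This was a log2 fold change of 1.32 (standard error 0.28, edgeR unadjusted p = 0.000657, adjusted p = 0.646), and DESeq2, the likelihood ratio test and voom called it at an adjusted p under 0.05. In A17fl/fl mice it had 84.0, 42.4 and 40.4 CPM after saline and 82.8, 57.4 and 70.9 CPM after doxorubicin, a log2 fold change of 0.34 (unadjusted p = 0.249), or 0.76 without A17fl/fl + NS replicate 1 (unadjusted p = 0.00383). Over both genotypes the log2 fold change of Tnfrsf12a was 0.83 (edgeR unadjusted p = 0.00146, adjusted p = 0.261). Without that library it was 1.04 (edgeR unadjusted p = 1.24e-05), and 0 of the pathway genes passed at an adjusted p under 0.05 in that fit. The interaction was 0.98 (edgeR unadjusted p = 0.0302, adjusted p = 0.828) and 0.56 without that library (unadjusted p = 0.0666).

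Downstream, Tab1, the TAK1-binding subunit on the TRAF6 and TRAF2 route, had 12.7, 17.4 and 16.7 CPM with saline and 21.4, 25.1 and 31.3 CPM with doxorubicin in A17fl/fl mice (log2 fold change 0.73, standard error 0.18, edgeR adjusted p = 0.334). The groups did not overlap, and A17α-MHCKO mice had 19.8 to 25.4 CPM after saline and 22.9 to 29.6 CPM after doxorubicin. Map3k7, which encodes TAK1, had a log2 fold change of -0.07 in A17fl/fl mice and -0.12 in A17α-MHCKO mice. Peli1, an E3 ligase that acts on TRAF3 and on NF-κB signaling, had 25.7, 25.9 and 19.6 CPM with saline in A17fl/fl mice. With doxorubicin these mice had 17.2, 14.8 and 17.7 CPM. The log2 fold change was -0.52 (standard error 0.14, edgeR adjusted p = 0.334), and -0.46 without A17fl/fl + NS replicate 1. A17α-MHCKO mice had 21.8, 19.0 and 19.6 CPM with saline and 16.2, 17.5 and 16.7 CPM with doxorubicin, also without overlap. Their log2 fold change was -0.26 (edgeR unadjusted p = 0.0914).

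The core of the non-canonical pathway past NIK was represented by 3 genes, of which 0 had an unadjusted p under 0.05 after doxorubicin in either genotype. Chuk, which encodes IKKα, had log2 fold changes of 0.01 after doxorubicin in A17fl/fl mice and -0.03 in A17α-MHCKO mice. Nfkb2, which encodes the precursor processed upon NIK signaling, and Relb, which encodes the dimer partner of the processed form, were at 69.1 and 21.9 CPM in A17fl/fl + NS replicate 1. Elsewhere they ranged from 20.9 to 33.6 CPM and from 9.32 to 15.5 CPM. The median of the 3 genes after doxorubicin in A17fl/fl mice was -0.46, and -0.11 without that library.

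The 9 NF-κB response genes had a median log2 fold change of -1.21 after doxorubicin in A17fl/fl mice (-0.04 over all genes), with 5 lower at an unadjusted p under 0.05, beside 10.7% of all genes. Without A17fl/fl + NS replicate 1 the median was -0.30 (-0.01 over all genes), with 0 lower and 2 higher, beside 10.2%. Cxcl1, a neutrophil-attracting chemokine, was at 64.5 CPM there and at 0.37 to 3.51 CPM elsewhere. Between the genotypes after saline its log2 fold change was -4.81, or -1.62 without that library (unadjusted p = 0.0103), and its interaction was 5.28, or 2.09 without it (unadjusted p = 0.0123), all from edgeR. Of the non-canonical targets, Cxcl13, a B cell chemokine, had 67.4, 6.94 and 5.51 CPM in A17fl/fl + NS mice, against 0.123, 0.432 and 1.98 CPM for A17α-MHCKO + NS, and Cxcl12, a stromal chemokine, had 372, 225 and 422 CPM against 189, 200 and 196 CPM. Both pairs of groups did not overlap. The edgeR log2 fold changes were -4.99 (unadjusted p = 0.00265, adjusted p = 0.305) and -0.80 (unadjusted p = 0.00378, adjusted p = 0.316). Without A17fl/fl + NS replicate 1 they were -2.89 and -0.74. Cxcl13 was as low as 0.123 CPM in A17α-MHCKO + NS mice, close to 0, so the size of its log2 fold changes is uncertain.

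**Figure D5:**
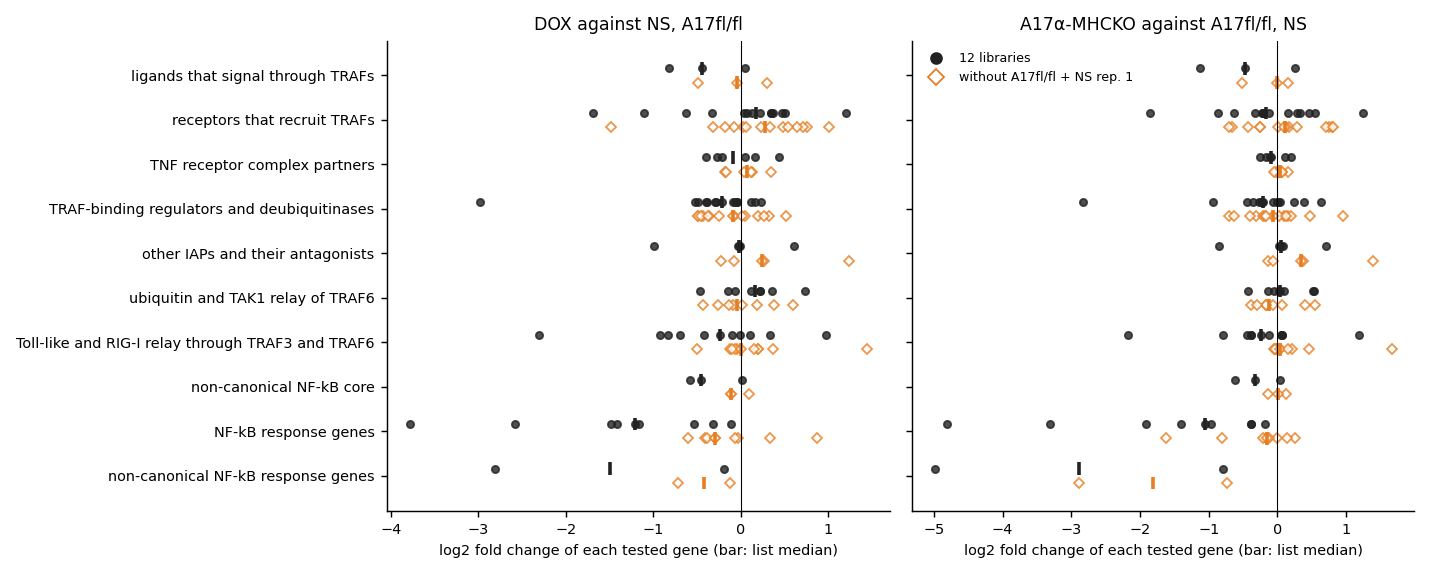
Log2 fold changes of the tested genes of the 10 pathway lists after doxorubicin in A17fl/fl mice (left) and between the genotypes after saline (right), with all 12 libraries (circles) and without A17fl/fl + NS replicate 1 (diamonds); bars are list medians. The median of the NF-κB response genes on the left moves from -1.21 to -0.30.

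The genes whose pattern over the 12 libraries was most like that of Traf3 were found by the mean absolute difference of standardized log2 CPM among 14459 genes with a mean of at least 1 CPM. They were Dcun1d2 (0.45 SD), a regulator of cullin neddylation, Flvcr2 (0.503 SD), a membrane transporter, Brdt (0.526 SD), a bromodomain gene, Trmt11 (0.53 SD), a tRNA methyltransferase subunit, and Uros (0.535 SD), an enzyme of heme synthesis. Of the other TRAF, cIAP and NIK genes, Traf5 was the nearest, at rank 338 of 14459, and Map3k14 was at rank 14145. Log2 fold changes of Traf5 after doxorubicin were 0.36 in A17fl/fl mice and -0.18 in A17α-MHCKO mice. Between the genotypes they were 0.37 after saline and -0.17 after doxorubicin, each with the sign that Traf3 had. Uros had 17 to 21.5 CPM in A17fl/fl + DOX mice and 11.2 to 14.5 CPM in all other libraries. Dcun1d2 had 52.5 to 60.2 CPM in the A17fl/fl + DOX mice and in A17α-MHCKO + DOX replicates 1 and 3, and 16.2 to 26.8 CPM in all others, A17α-MHCKO + DOX replicate 2 among them. That mouse also had the lowest Traf3 value after doxorubicin. Traf5 was singled out as the nearest member, and Uros and Dcun1d2 were picked for likeness to Traf3, all over these same libraries. Shared signs and shared high and low values therefore follow from the choice. Without A17fl/fl + NS replicate 1, 2 of these 5 genes stayed among the nearest 5.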

How the data were processed

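RNA of 12 left ventricles was sequenced by the authors from stranded paired-end libraries of mRNA, and fragments were assigned to genes with StringTie. The submitters' processing notes name CASAVA 1.8, HISAT2, SAMtools 1.3.1, edgeR and GRCm39. The authors deposited, per gene and mouse, an unnormalized count and an FPKM, which is the count divided by gene length and library total. The counts entered every model, and the FPKM served for levels of different genes, shares and ratios. Positions are in GRCm38, from GENCODE M21, which holds 53274 of the 53465 identifiers; the GRCm39 annotation was not used here. The strand setting of the counting is not given in the sources used here.

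In R 4.3.3, genes kept by filterByExpr (16101) were scaled by TMM and fitted with edgeR 4.0.16 (glmQLFit, glmQLFTest) with a mean for each group, and p-values were adjusted by Benjamini-Hochberg over all genes tested. Standard errors and 95% intervals follow from the F statistic and are approximate. Single values were tested by exact permutation, for which 3 against 3 cannot give a p under 0.1. CPM are TMM-normalized, and log2 values for likeness used a pseudocount of 0.5. The fit was tested on simulated counts. Alternatives were DESeq2 1.42.0, RLE and upper quartile scaling, no filter, at least 10 counts in every library, the likelihood ratio test, the groups alone, a replicate block, each library left out, and the study's limits (absolute log2 fold change over 1, unadjusted p under 0.05 and mean FPKM over 1). limma 3.58.1 voom with a weight for each library was added after seeing the data.

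Total counts were 15950717 to 21725076, and members had 22 to 770 counts per library, so counting error is part of the spread of the rarest. Within groups, counts differed by 11.1 to 170 chi-square per degree of freedom, and no library was a duplicate. The labels name separate mice by replicate number alone. All 10 members are named in every comparison. From the pathway lists, up to 3 genes with the smallest unadjusted p under 0.05 per comparison are named, and always Tnf, Tnfrsf1a, Tnfrsf1b, Chuk, Nfkb2, Relb and Map3k7. Members and lists were chosen with earlier results of these data known.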

Additional observations from a re-analysis of the deposited data

Results flagged for a closer look

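The effect of doxorubicin on Traf3 differed between the genotypes by -1.09 on the log2 scale (A17α-MHCKO less A17fl/fl), and the interaction test that singled it out gave an unadjusted p of 0.0198 from edgeR (adjusted p = 0.828, so it fails the correction). The unadjusted p of this interaction was 0.0606 from edgeR without A17α-MHCKO + NS replicate 1 and 0.0507 from voom with library weights. In A17fl/fl mice 3 of 3 values after doxorubicin were above all 3 after saline, and in A17α-MHCKO mice the groups overlapped. For Map3k14 the same difference was 0.5, with an unadjusted p of 0.0322 from edgeR (adjusted p = 0.828), and it too fails the correction; its unadjusted p was over 0.05 in 9 of the alternatives, up to 0.0926 with the likelihood ratio test. At an unadjusted p under 0.05, 5.99% of all genes differed between the genotypes in this way. Dixon's test of a single outlying value was not run, since each group holds 3 mice.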

How the results depend on the processing

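At an adjusted p under 0.05, 0 of the 10 genes passed in any of the 7 comparisons under the main test or any alternative run. The study's limits, which use unadjusted p, gave 2 genes (Traf3 and Birc3; 2.82% of all genes) for doxorubicin in A17fl/fl mice and 0 (0.205%) for genotype after doxorubicin. Of 70 log2 fold changes (10 genes in 7 comparisons), 48 kept their sign in every alternative, including all 10 that had an unadjusted p under 0.05. Leaving out 1 library at a time, Traf1 ran from -2.23 to 0.68 after doxorubicin in A17fl/fl mice, from -1.80 to 1.12 for genotype after saline, from -0.94 to 1.98 for the interaction and from -0.81 to 0.65 for genotype over both treatments; A17fl/fl + NS replicate 1 turned each. Its voom values also turned (0.33 and 0.70 in the first pair). DESeq2 gave no p for Traf1. Traf3 after doxorubicin in A17fl/fl mice ran from 1.0 to 1.16. Of the pathway genes, edgeR's quasi-likelihood test called 0, DESeq2 called 1 (Tab1) for doxorubicin in A17fl/fl mice, 1 (Tnfrsf12a) in A17α-MHCKO mice, 3 (Bcl3, Cxcl1 and Cxcl12) for genotype after saline and 2 (Peli1 and Tnfrsf12a) for doxorubicin over both genotypes. The likelihood ratio test called 1, 3 and 1 in the last 3 of these, and voom 1 (Tnfrsf12a) for doxorubicin in A17α-MHCKO mice and 1 over both genotypes. Leaving out 1 library gave 0 to 6 for doxorubicin in A17fl/fl mice and 0 to 9 for genotype after saline, the highest of both without A17fl/fl + NS replicate 2. Without that replicate the 6 were Bcl3, Cxcl1, Tnf, Tnfaip3, Tnfrsf1b and Tnfsf14, and the 9 added Ccl2, Cxcl12 and Cxcl13. That fit kept A17fl/fl + NS replicate 1, where Tnf, Tnfaip3, Tnfrsf1b, Bcl3, Cxcl1, Ccl2 and Cxcl13 were highest and Cxcl12 was not. The Traf3 share moved from 5.83 to 11.6 percentage points with raw counts and 7.26 without Traf7, and from -3.95 to -7.38 with raw counts for genotype after doxorubicin; these measure other totals. The likeness list kept 2 genes without A17fl/fl + NS replicate 1. Replicate numbers did not pair the mice: correlations of same-numbered deviations ran from -0.104 to 0.219. With a replicate block, the doxorubicin effect in A17fl/fl mice was 1.07 for Traf3 (adjusted p = 0.385) and -0.49 for Map3k14 (adjusted p = 0.42), and the count of called members stayed at 0. The number of mice limits what these comparisons can show. The other causes were not tested.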

Other observations

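Irf7, an interferon-inducible factor of the TRAF3 and TRAF6 route that was chosen after its values were seen, had 27.7, 10.8 and 14.8 CPM with saline and 23.6, 51.9 and 29.0 CPM with doxorubicin in A17fl/fl mice. A17α-MHCKO mice had 42.3, 26.5 and 52.9 CPM after saline and 17.2, 29.6 and 45.2 CPM after doxorubicin. The log2 fold change after doxorubicin was 0.97 in A17fl/fl mice and -0.40 in A17α-MHCKO mice, and the interaction was -1.38 (edgeR unadjusted p = 0.0491, adjusted p = 0.828). Unlike Cxcl1, Bcl3 and Ccl2 of the NF-κB response genes, Irf7 was not highest in A17fl/fl + NS replicate 1. In that library Tnfaip3, which encodes the deubiquitinase A20, had 134 CPM, against 4.22 to 9.17 CPM in the others. Ikbke, which encodes a kinase that acts with TBK1, had 30.1 CPM there, against 1.76 to 3.02 CPM.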
